A study of Mus musculus with 17 samples.

Results

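The Serpina3 family of the mouse, a cluster of acute-phase serine protease inhibitor genes, was followed in colon RNA from WT and Pxr-/- mice given PCN or its vehicle. The members followed here were 9 names of the array design: Serpina3b, Serpina3c, Serpina3f, Serpina3g, Serpina3h, Serpina3i, Serpina3k, Serpina3m and Serpina3n. The array also names Serpina3a and Serpina3j, which were not counted as members, so counts out of 9 do not cover the whole family. The 9 members carried 11 of the 56605 probes, under 9 of 37325 gene or transcript names. Where a gene had more than 1 probe, as 2 members did, its probe was chosen by the highest mean level over all arrays in the authors' table, and no level is set against that of another member. All 9 members passed the filter on dim probes (well above background on at least 4 of 17 arrays), 6 of them on every array, with Serpina3c on 14, Serpina3i on 13 and Serpina3k on 4. In the annotation (GRCm38.p6) the members lie on chromosome 12 between positions 104127986 and 104414334, a span of 286 kb. RefSeq lists 8 as protein coding and Serpina3h as a transcribed pseudogene.

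Each of the 17 Agilent arrays held the colon RNA of 1 sample. WT CONT (n = 4) and WT PCN (n = 4) were C57Bl/6J males purchased at 6 weeks of age, while Pxr-/- CONT (n = 5) and Pxr-/- PCN (n = 4) were males of a Pxr-null line that had been backcrossed to C57Bl/6J and bred in house for 10 years. The difference between genotypes therefore includes that of origin. All mice had 2 weeks of acclimatization, then a daily intraperitoneal injection for 4 days of corn oil (CONT) or of PCN at 100 mg/kg in corn oil, and were killed in the fed state 6 h after the last one. PCN, pregnenolone carbonitrile, is a synthetic steroid that activates the rodent pregnane X receptor PXR (gene Nr1i2), a nuclear receptor that senses foreign compounds.

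Serpins inhibit proteases by offering a loop as bait and trapping the enzyme that cleaves it. Humans have a single SERPINA3, alpha-1-antichymotrypsin, a plasma protein of the liver that increases in the acute phase of inflammation and inhibits cathepsin G and chymase. In the mouse this gene was duplicated into a cluster whose members differ mostly in the bait loop. Serpina3n is its secreted acute-phase member, made in liver and other tissues during inflammation, and inhibits granzyme B and neutrophil proteases. Serpina3g (Spi2A) stays inside cells, inhibits lysosomal cathepsins and is known from leukocytes, and Serpina3c, Serpina3k and Serpina3m are known as liver products.

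Some arrays stood apart. WT PCN replicate 4 and Pxr-/- PCN replicate 2 carried different labels but differed, over all probes, with an SD of 0.172 on the log2 scale, and WT PCN replicate 3 and Pxr-/- CONT replicate 2 with an SD of 0.198, whereas the next closest of the 136 pairs had 0.298. Which label of each pair holds cannot be told apart here, so the differences of the members and the counts of gene lists are also given without these 4 arrays, which leaves 4, 2, 4 and 3 arrays in WT CONT, WT PCN, Pxr-/- CONT and Pxr-/- PCN. Colonocyte markers were high on every array (mean of 8 genes 14.32 to 15.14). The mean of 8 hepatocyte markers was 11.75 on WT CONT replicate 5, 9.39 on WT PCN replicate 1 and 9.21 on WT PCN replicate 2, against 7.18 to 7.75 on the other 14 arrays. Pancreatic acinar markers were high on WT CONT replicate 4 (17.63), WT PCN replicate 3 (15.50), Pxr-/- CONT replicate 2 (15.45) and WT PCN replicate 1 (11.30), and 6.72 to 7.16 elsewhere. On Pxr-/- PCN replicate 4 the distal colon marker Hoxb13 was 7.53, against 12.88 to 16.09 on the other arrays. The colonocyte marker Car1 was 17.04 there and 13.62 to 16.28 elsewhere. The mean of 5 distal colon markers was 6.39 to 10.31 on Pxr-/- PCN and 6.98 to 8.89 on Pxr-/- CONT arrays. Whether the samples differed in position along the colon was not tested. The Nr1i2 probe was bright in both genotypes, between 10.39 and 11.93 on the Pxr-/- arrays, and between 11.85 and 12.44 on 6 of the WT arrays. It was 11.10 and 11.15 on WT PCN replicates 3 and 4, which thus lay within the range of the Pxr-/- arrays. Whether it lies in the deleted part of the gene is not given in the sources used here, so it does not check the labels.

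The signal of a member is that of 1 probe of 60 bases. The beginnings of the probes for the 4 members on which the results turn are shown to identify what was measured (the first 30 bases, as on the array).
Serpina3n: ttggcatgcctggattagatagtgactaac
Serpina3i: atgatgaaaatagaggaactaactacaccc
Serpina3g: tgtctcttgttgaccaactacgtaggactg
Serpina3m: atctgtgcatgtttctgaacctggagtctg
The array design places them (mm9, chromosome 12) at 105651918 to 105651977 for Serpina3n, 105504738 to 105504797 for Serpina3i, 105480045 to 105480104 for Serpina3g and 105632342 to 105632400 for Serpina3m. Paralogs of the cluster are close in sequence, and a pair of probes is shown because it bears on which gene is read: the Serpina3h probe and the second Serpina3i probe were identical at 53 of 58 aligned bases (91.4%). In their first 30 aligned bases, capitals mark the letters that had no identical partner in the alignment.
Serpina3h: gctgccacaggGgtcaaattaaTtctaTgt
Serpina3i, second probe: gctgccacaggAgtcaaaGttaatctaCgt
The second Serpina3f probe, which the array annotation assigns to both Serpina3f and Serpina3h, matched the Serpina3b probe at 45 of 50 aligned bases (90.0%). Signals of Serpina3b, Serpina3f, Serpina3h and Serpina3i may thus include RNA of a paralog.

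Serpina3n, the secreted acute-phase member, was higher on every Pxr-/- PCN array than on any Pxr-/- CONT array. Its log2 signal on the Pxr-/- CONT arrays (replicates 1 to 5) was 9.03, 9.17, 9.26, 8.94 and 8.98, and on the Pxr-/- PCN arrays (replicates 1 to 4) 10.61, 10.81, 10.68 and 10.63. The gap between the groups was wide against a spread of at most 0.13 (SD) within them. On the WT arrays it was 9.27, 9.81, 9.39 and 10.13 in CONT (replicates 2 to 5) and 11.18, 11.01, 9.07 and 10.85 in PCN (replicates 1 to 4). Here 3 of the 4 PCN arrays were above all CONT arrays and WT PCN replicate 3, one of the near-identical arrays, was below all of them. By group mean the order was Pxr-/- CONT (9.07 ± 0.13, SD, n = 5), WT CONT (9.65 ± 0.40, n = 4), WT PCN (10.53 ± 0.98, n = 4) and Pxr-/- PCN (10.68 ± 0.09, n = 4), of which both PCN groups overlapped.

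**Figure D1:**
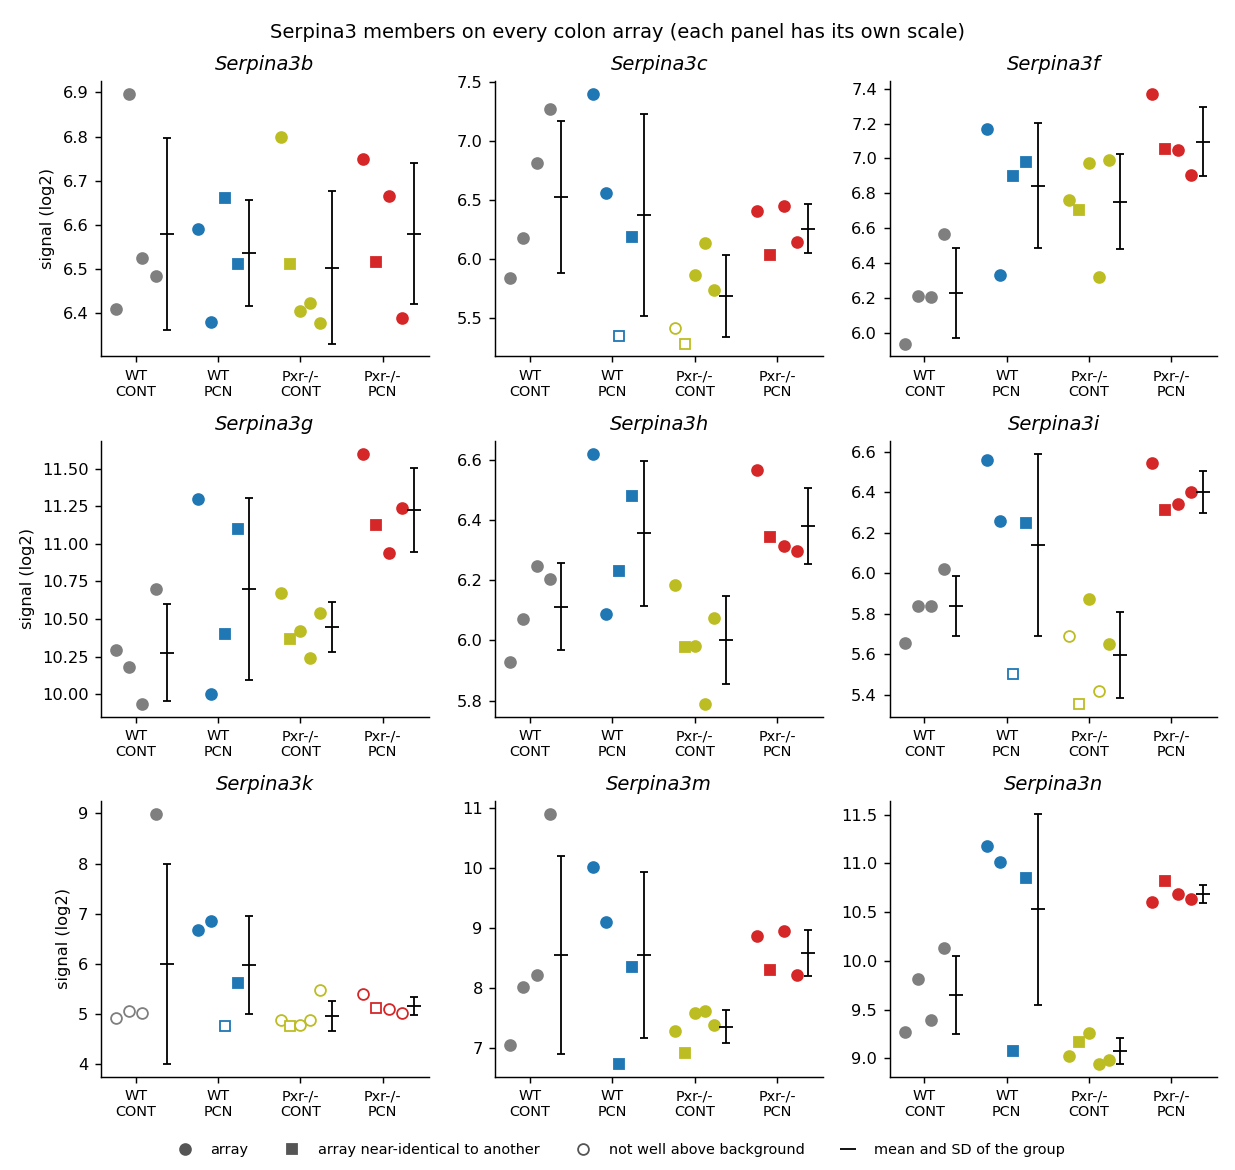
Log2 signal of each Serpina3 member (1 panel per gene, each with its own vertical scale) on the 17 arrays by group. Circles are arrays, squares the 4 arrays that were near-identical to an array of another group, open symbols are not well above background, and bars give the group mean and SD. The Serpina3n values of Pxr-/- PCN (10.61 to 10.81) lie above those of Pxr-/- CONT (8.94 to 9.26), and WT PCN replicate 3 (9.07) lies apart from the other WT PCN arrays.

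With all 17 arrays in the linear model, the Serpina3n difference for PCN was 1.63 on the log2 scale (SE 0.32, 3.09-fold) in Pxr-/- mice, with an adjusted p of 0.206 (limma, Benjamini-Hochberg over the 38703 probes tested), and 0.92 (SE 0.35, 1.89-fold, adjusted p = 0.956) in WT mice. Neither was called at FDR 0.05 and a fold change over 1.5. Among all probes tested the difference ranked 26th from the top in Pxr-/- and 124th in WT mice. Without the 4 near-identical arrays the Pxr-/- difference was 1.58 (SE 0.18, 2.99-fold, limma adjusted p = 0.0243) and Serpina3n passed the test. The WT difference was then 1.44 (SE 0.21, 2.72-fold, limma adjusted p = 0.0545) and missed it, with 2 PCN arrays, both high in hepatocyte markers. Leaving out WT PCN replicate 3 alone gave 1.37 in WT (limma adjusted p = 0.012) and 1.61 in Pxr-/- mice (limma adjusted p = 6.03e-04), both past the threshold. That array lay far below the other WT PCN arrays for Serpina3n, so these p-values depend on dropping the gene's own outlying value. The same fit kept the near-identical WT PCN replicate 4 and Pxr-/- PCN replicate 2 as separate arrays. The fitted difference between the genotypes in the PCN effect was 0.71 (SE 0.47, adjusted p = 0.848, limma) with all arrays and 0.14 (SE 0.28) without the 4 arrays, so that a difference in the response was not shown.

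The arrays came in 2 wash baths and on 8 slides, several of which held a CONT and a PCN array of the same genotype. Within the baths the Serpina3n difference for PCN was 1.65 and 1.56 in Pxr-/- mice and 0.77 and 1.42 in WT mice, the latter with 1 PCN array. On the slides, PCN minus CONT was 1.44, 1.87 and 1.65 in Pxr-/- mice, and 1.78, 1.74 and -0.74 in WT mice, the last with WT PCN replicate 3. With slide as a fixed block the fitted values were 1.67 in Pxr-/- and 0.85 in WT mice, neither called (limma adjusted p = 0.804 and 0.994). The direction was therefore the same within each bath, and on each slide but the one that held WT PCN replicate 3. The Pxr-/- slide values 1.44 and 1.87 used the near-identical Pxr-/- CONT replicate 2 and Pxr-/- PCN replicate 2, so only 1.65 was free of doubtful labels. These arrays also entered the Pxr-/- values within the baths.

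**Figure D2:**
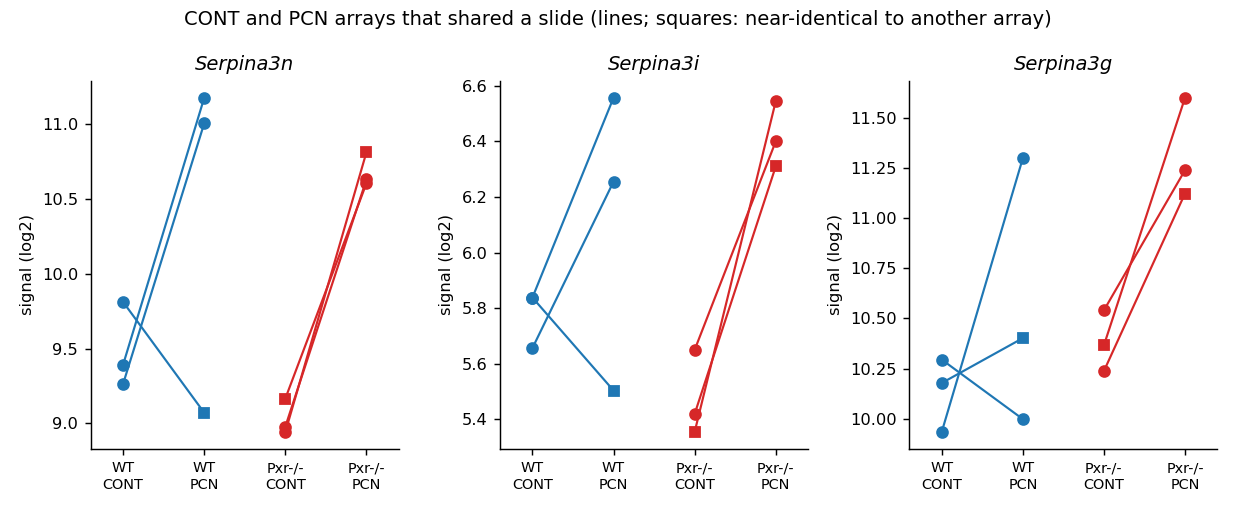
Log2 signal of Serpina3n, Serpina3i and Serpina3g on CONT and PCN arrays that shared a slide (3 slides per genotype), each slide a line; squares are arrays near-identical to another. In Pxr-/- mice the 3 genes were higher with PCN on all 3 slides, and in WT mice Serpina3n and Serpina3i were higher on 2 and lower on the slide that held WT PCN replicate 3.

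Markers of other cell types also differed between these groups. The mean of 8 myeloid markers was 10.81 to 11.17 on Pxr-/- CONT and 11.83 to 12.33 on Pxr-/- PCN arrays, and 11.26 to 11.86 on WT CONT and 11.13 to 12.91 on WT PCN arrays, where WT PCN replicate 3 was the lowest. Of these 8 genes, 5 were higher and 3 lower with PCN in Pxr-/- mice (median difference 0.35), and 7 were higher in WT mice. The 2 largest differences were those of S100a8 and S100a9, calcium-binding proteins of neutrophils, at 3.59 and 3.81 in Pxr-/- and 2.40 and 2.44 in WT mice. With all 17 arrays none of the 8 was called (limma adjusted p = 0.206 for both in Pxr-/- and 0.956 in WT mice). S100a8 was 5.73 to 7.08 on Pxr-/- CONT and 9.66 to 10.53 on Pxr-/- PCN arrays. Without the 4 near-identical arrays S100a8 rose by 3.76 (SE 0.49, limma adjusted p = 0.0289) in WT and by 3.72 (SE 0.44, limma adjusted p = 0.0243) in Pxr-/- mice, and S100a9 by 3.94 in Pxr-/- mice (SE 0.49, limma adjusted p = 0.0306). All 8 smooth muscle markers (median difference -0.42) and all 8 enteric neuron markers (-0.36) were lower with PCN in Pxr-/- mice, 5 of each list at an unadjusted limma p of up to 0.05 and 0 called. All 8 of each were higher in WT mice (0.15 and 0.09), 0 of them at that threshold. Of 8 adipocyte markers, 7 were lower with PCN in each genotype (median difference -0.99 in WT and -0.64 in Pxr-/- mice). At that threshold 5 of them were lower in WT and 0 in Pxr-/- mice, and 0 were called. The part of these cells in the Serpina3n signal was not tested, and in bulk tissue more cells of a type cannot be told apart from more RNA per cell. Hepatocyte markers averaged 7.28 to 7.70 on Pxr-/- PCN arrays against 7.18 to 7.75 on Pxr-/- CONT arrays, with 5 of 8 higher and 3 lower with PCN (median difference 0.17) and 0 at an unadjusted limma p of up to 0.05. Single markers differed: Alb was well above background on 3 of the 4 Pxr-/- PCN arrays and Ahsg on 1, against 5 and 3 of the 5 Pxr-/- CONT arrays. Serpina1a was well above background on all of them, at 6.69 to 8.29 on Pxr-/- PCN and 6.23 to 8.16 on Pxr-/- CONT arrays. The part of liver-type RNA on these arrays was not tested. In WT mice the hepatocyte markers were high on 2 of the PCN arrays, and without the 3 arrays highest in them the WT difference of Serpina3n was 0.44 (SE 0.38, limma adjusted p = 0.817), which rests on WT PCN replicates 3 and 4, both near-identical to an array of another group.

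Serpina3i, whose product has been little studied, had the same order as Serpina3n. On the Pxr-/- CONT arrays its log2 signal was 5.69, 5.35, 5.87, 5.42 and 5.65, with 2 of 5 arrays well above background, and on the Pxr-/- PCN arrays 6.54, 6.31, 6.34 and 6.40, all well above it. The groups did not overlap. On the WT arrays it was 5.66, 5.84, 5.84 and 6.02 in CONT and 6.56, 6.26, 5.50 and 6.25 in PCN, again with WT PCN replicate 3 the lowest. The difference was 0.82 (SE 0.16, 1.76-fold, limma adjusted p = 0.206) in Pxr-/- and 0.34 (SE 0.17, limma adjusted p = 0.956) in WT mice. Without the 4 arrays the values were 0.75 (limma adjusted p = 0.0749) and 0.57 (limma adjusted p = 0.358). The second Serpina3i probe gave larger values, 1.23 in Pxr-/- and 0.77 in WT mice with all arrays (limma adjusted p = 0.206 and 0.956), and passed the test in Pxr-/- mice without the 4 arrays (1.23, SE 0.17, 2.35-fold, limma adjusted p = 0.0424). It was well above background on 1 of 5 Pxr-/- CONT arrays, so that this fold is measured against a signal close to background.

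Serpina3g, the intracellular cathepsin inhibitor, was bright on all arrays. Its probe is named as in the array design, since the transcript given for it was not matched in the RefSeq table. Its log2 signal on Pxr-/- CONT arrays was 10.67, 10.37, 10.42, 10.24 and 10.54, and on Pxr-/- PCN arrays 11.60, 11.12, 10.94 and 11.24. These groups did not overlap. On WT CONT arrays it was 10.29, 10.18, 9.93 and 10.70, and on WT PCN arrays 11.30, 10.00, 10.40 and 11.10. In WT mice the groups overlapped, with WT PCN replicate 2 below 3 of the 4 CONT arrays although its Serpina3n signal was the second highest of all arrays. The differences were 0.81 (SE 0.21, 1.75-fold, limma adjusted p = 0.397) in Pxr-/- and 0.51 (SE 0.22, 1.42-fold, limma adjusted p = 0.956) in WT mice, and neither was called with or without the 4 arrays.

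Serpina3f and the pseudogene Serpina3h gave dim signals that were well above background on every array. Serpina3h was 5.79 to 6.18 on Pxr-/- CONT and 6.30 to 6.56 on Pxr-/- PCN arrays, which did not overlap, and 5.93 to 6.25 on WT CONT and 6.09 to 6.62 on WT PCN arrays, which did. The differences were small, 0.40 (SE 0.09, 1.32-fold, limma adjusted p = 0.262) in Pxr-/- and 0.29 (SE 0.09, 1.23-fold, limma adjusted p = 0.956) in WT mice, and 0.34 and 0.24 without the 4 arrays. Serpina3f was lowest in WT CONT, at 5.94, 6.21, 6.21 and 6.57, against 7.17, 6.33, 6.90 and 6.98 in WT PCN, 6.76, 6.71, 6.98, 6.32 and 6.99 in Pxr-/- CONT, and 7.37, 7.06, 7.05 and 6.91 in Pxr-/- PCN. Its difference for PCN was 0.67 in WT (SE 0.17, 1.59-fold, limma adjusted p = 0.956) and 0.37 in Pxr-/- mice (SE 0.16, 1.29-fold, limma adjusted p = 0.653), and 0.52 and 0.29 without the 4 arrays. WT PCN replicate 3, low for Serpina3n and Serpina3i, was not low for Serpina3f. The second Serpina3f probe, shared with Serpina3h, gave 0.50 in WT and 0.78 in Pxr-/- mice and so ordered the genotypes the other way. The array design places it (mm9) at 105492556 to 105492615, nearer the Serpina3h probe (105491733 to 105491792) than the first Serpina3f probe (105458989 to 105459048). It is therefore not a second reading of Serpina3f alone.

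**Figure D3:**
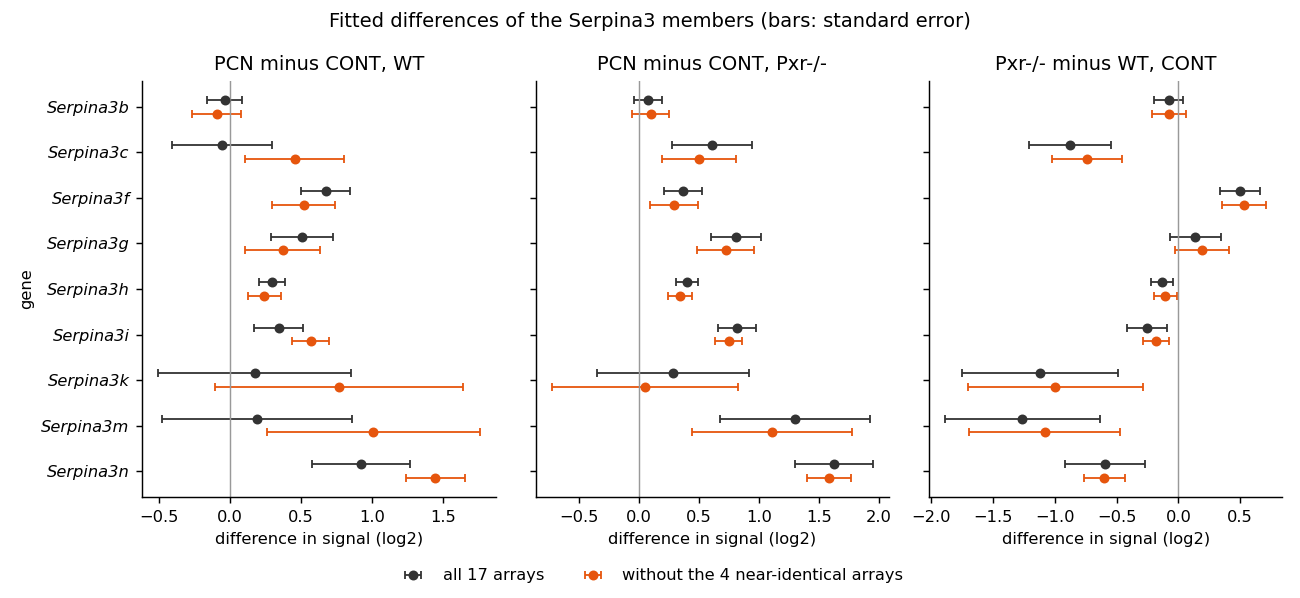
Fitted log2 differences (points, with standard errors as bars) of the 9 members for PCN in WT mice, PCN in Pxr-/- mice and genotype among CONT mice, with all 17 arrays (black) and without the 4 near-identical arrays (orange). In Pxr-/- mice Serpina3n lies at 1.63 and 1.58, while in WT mice it moves from 0.92 to 1.44; Serpina3k was not well above background on any Pxr-/- array, so its points in the Pxr-/- panel have no measured level behind them.

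The members known as liver products behaved differently. Serpina3k, a plasma serpin that binds kallikrein, was well above background only on WT CONT replicate 5 (8.99), WT PCN replicate 1 (6.68), WT PCN replicate 2 (6.85) and WT PCN replicate 4 (5.62), and on none of the 9 Pxr-/- arrays. The first 3 of these arrays were those with the highest hepatocyte markers. Serpina3m was 7.04, 8.02, 8.21 and 10.90 in WT CONT, 10.01, 9.09, 6.73 and 8.35 in WT PCN, 7.28, 6.92, 7.59, 7.60 and 7.38 in Pxr-/- CONT, and 8.87, 8.30, 8.94 and 8.21 in Pxr-/- PCN. Its highest values were on the same 3 arrays, yet in Pxr-/- mice, where hepatocyte markers stayed low, all 4 PCN arrays were above all 5 CONT arrays. The difference was 1.30 (SE 0.63, 2.46-fold, limma adjusted p = 0.691) in Pxr-/- and 0.19 (SE 0.67, limma adjusted p = 0.987) in WT mice, and 1.11 and 1.01 without the 4 arrays (limma adjusted p = 0.80 and 1.0). Serpina3c was 5.84, 6.17, 6.81 and 7.27 in WT CONT, 7.40, 6.56, 5.34 and 6.19 in WT PCN, 5.41, 5.28, 5.86, 6.13 and 5.74 in Pxr-/- CONT and 6.41, 6.03, 6.45 and 6.14 in Pxr-/- PCN. It differed by 0.61 (SE 0.33, 1.53-fold, limma adjusted p = 0.741) for PCN in Pxr-/- and by -0.06 (SE 0.35) in WT mice. Without the 4 arrays these values were 0.50 and 0.46 (limma adjusted p = 0.812 and 1.0), so that the sign in WT mice turned. For Serpina3c the genotypes differed in the PCN effect by 0.67 (SE 0.48, limma adjusted p = 0.852) with all arrays and by 0.04 (SE 0.47) without the 4. For Serpina3m these values were 1.11 (SE 0.91, limma adjusted p = 0.857) and 0.10 (SE 1.00). The part of liver-type RNA in these 3 genes was not tested.

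**Figure D4:**
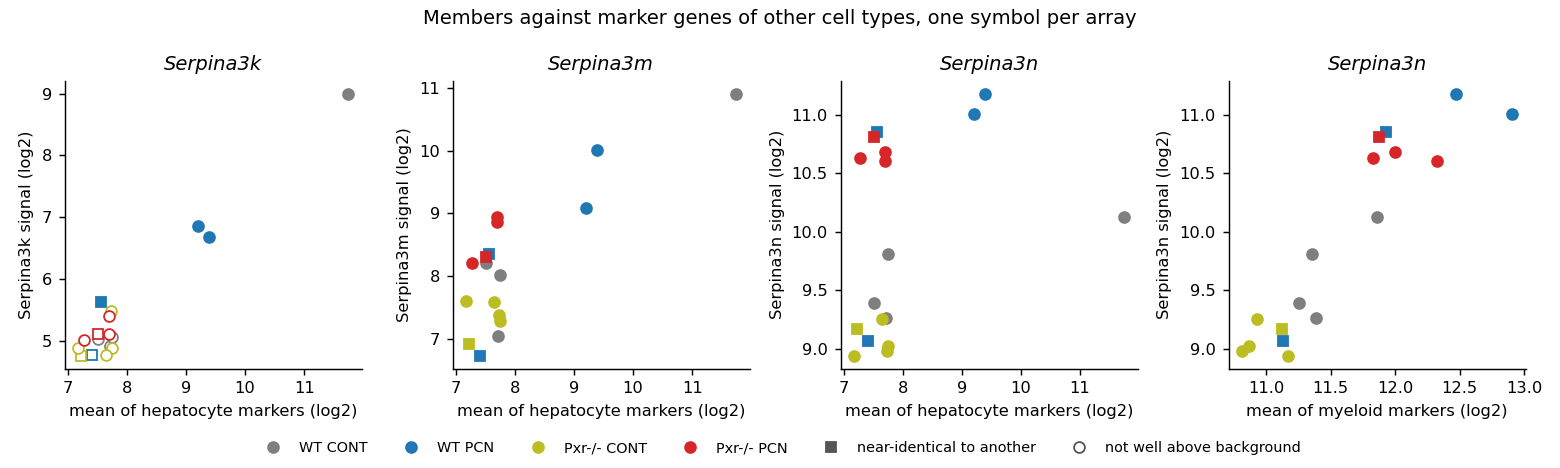
Log2 signal of Serpina3k, Serpina3m and Serpina3n against the mean log2 signal of 8 hepatocyte markers, and of Serpina3n against that of 8 myeloid markers, 1 symbol per array coloured by group (squares: near-identical to another array; open: not well above background). Serpina3k left the background mainly on the 3 arrays with hepatocyte markers above 9, while the Pxr-/- PCN arrays had Serpina3n at 10.61 to 10.81 with hepatocyte markers at 7.28 to 7.70.

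Serpina3b was the member that moved least. Its log2 signal lay between 6.38 and 6.90 on all 17 arrays, with overlapping groups, and its fitted differences were between -0.08 and 0.12 in the 4 comparisons (SE 0.12 to 0.17).

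Counted over the members, 0 of 9 were called for PCN in WT mice with all arrays, where 0 of 38703 probes (0%) were, and 0 of 9 in Pxr-/- mice, where 2 probes (0.00517%) were. At an unadjusted limma p of up to 0.05, 4 of 9 were higher with PCN in WT mice (Serpina3f, Serpina3g, Serpina3h and Serpina3n; 2.49% of all probes) and 5 of 9 in Pxr-/- mice (Serpina3f, Serpina3g, Serpina3h, Serpina3i and Serpina3n; 3.4% of all probes). None was lower at that threshold in either genotype. The family was chosen with earlier results of these data known, and signals of Serpina3f, Serpina3h and Serpina3i may include RNA of a paralog. The counts beside the shares are thus a description and not a test of the family. In Pxr-/- mice the PCN arrays were all above the CONT arrays for 5 of 9 members (Serpina3g, Serpina3h, Serpina3i, Serpina3m and Serpina3n), compared with 1.38% of all probes, and in WT mice for 0 of 9, compared with 1.36%. The median difference over the members was 0.61 in Pxr-/- and 0.29 in WT mice, against 0.01 and 0.00 over all probes. Without the 4 near-identical arrays 1 of 9 members, Serpina3n, was called in Pxr-/- mice (higher: 0.0439% of all probes) and 0 of 9 in WT mice (0.0491% of all probes; 3 of 9 were higher at an unadjusted limma p of up to 0.05, as were 3.12% of all probes), and the groups did not overlap for 6 of 9 members in Pxr-/- mice (3.35% of all probes) and 2 of 9 in WT mice (6.39% of all probes). For the difference in PCN effect between the genotypes 0 of 9 members were called (0% of probes), and 0 of 9 had an unadjusted limma p of up to 0.05 (5.38% of all probes).

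Among CONT mice, 0 of 9 members were called between the genotypes (0% of probes), with 2 of 9 at an unadjusted limma p of up to 0.05 (12.7% of all probes). These were Serpina3f, 0.50 higher in Pxr-/- mice (SE 0.16, 1.41-fold, limma adjusted p = 0.27), and Serpina3c, 0.88 lower there, a log2 difference of -0.88 (SE 0.33, limma adjusted p = 0.323). Serpina3n was at most 9.26 on Pxr-/- CONT and at least 9.27 on WT CONT arrays, so that the groups did not overlap, as for 3.01% of all probes in this direction, but the gap was narrow. The fitted difference of -0.59 (SE 0.32, 1.51-fold, limma adjusted p = 0.458) was not called. For Serpina3m the difference was -1.26 (SE 0.63, limma adjusted p = 0.418), which WT CONT replicate 5 enlarged. Within the bath without that array it was 0.07, and within the other -2.36. With any 1 array left out, the Serpina3m difference was between -1.65 and -0.50. Without the 4 near-identical arrays these differences were 0.53 for Serpina3f, -0.74 for Serpina3c, -0.60 for Serpina3n and -1.08 for Serpina3m (limma adjusted p = 0.359, 0.423, 0.267 and 0.589). Serpina3k was not well above background in Pxr-/- CONT mice. Its WT CONT mean was 1.67-fold above the bound set for Pxr-/- CONT, and the fitted difference was not called (limma adjusted p = 0.473). The excess came from WT CONT replicate 5 alone. The other WT CONT arrays (4.92 to 5.05) were not well above background either, so this fold is not a lower limit for the groups.

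Since several members were high on the same arrays, the sequence upstream of their start sites is shown. RefSeq windows were at hand for 6 members, and 4 are printed for the members above (GRCm38.p6, 5′ to 3′, up to 250 bases before the start site, without bases inside the annotated gene). Capitals mark matches, on either strand, to the STAT element TTCNNNGAA, the C/EBP sequence TTGCNNAA and the glucocorticoid receptor hexamer AGAACA.
Serpina3n, chr12:104406458-104406645, plus strand: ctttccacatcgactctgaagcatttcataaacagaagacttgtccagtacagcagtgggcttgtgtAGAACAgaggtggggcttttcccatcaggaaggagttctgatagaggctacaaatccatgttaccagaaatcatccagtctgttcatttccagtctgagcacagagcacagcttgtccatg
Serpina3c, chr12:104153930-104154122, minus strand: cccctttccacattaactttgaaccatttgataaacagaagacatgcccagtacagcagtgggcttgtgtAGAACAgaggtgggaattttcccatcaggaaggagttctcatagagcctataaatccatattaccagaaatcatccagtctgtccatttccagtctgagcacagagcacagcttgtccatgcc
Serpina3g, chr12:104235897-104236146, plus strand: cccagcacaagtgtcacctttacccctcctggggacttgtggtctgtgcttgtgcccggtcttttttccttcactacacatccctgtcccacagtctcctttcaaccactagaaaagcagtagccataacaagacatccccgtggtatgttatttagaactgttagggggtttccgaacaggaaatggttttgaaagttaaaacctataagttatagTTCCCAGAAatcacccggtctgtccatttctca
Serpina3i, chr12:104262872-104263044, plus strand: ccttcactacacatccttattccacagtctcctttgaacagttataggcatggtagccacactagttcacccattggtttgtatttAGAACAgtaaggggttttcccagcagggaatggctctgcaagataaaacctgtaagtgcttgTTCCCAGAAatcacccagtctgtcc
Matches and shares were taken over full windows of 250 bases, a few of which run into the annotated gene. The letters TTCNNNGAA, held by 7.02% of the 32851 windows, were in those of Serpina3f, Serpina3g and Serpina3i. Counted back from the end of the full window, the match was at -33 to -25 in Serpina3g and at -102 to -94 in Serpina3i. The Serpina3g window has 0 bases inside the annotated gene and the Serpina3i window 77, so these 2 positions cannot be compared directly. In both printed sequences the match lies near the end, close to the annotated gene. The window of Serpina3n held no such match. AGAACA, in 16.1% of all windows, was in those of Serpina3b, Serpina3c, Serpina3f, Serpina3i and Serpina3n, the Serpina3f match running into the gene, and TTGCNNAA, in 9.56%, in those of Serpina3b and Serpina3f. The nuclear receptor hexamer AGGTCA, in 14.0% of all windows, was in none of the member windows. The full windows of Serpina3n and Serpina3c were identical at 229 of 247 aligned bases (92.7%), of which the last 62 and 57 lie inside the annotated genes and are not printed. Serpina3n was higher on every Pxr-/- PCN array than on any Pxr-/- CONT array. The Serpina3c groups overlapped with all arrays, where PCN was as low as 6.03 and CONT as high as 6.13. Without the near-identical Pxr-/- PCN replicate 2 and Pxr-/- CONT replicate 2 they barely parted (6.14 to 6.45 against 5.41 to 6.13), as did 3.35% of all probes without overlap in this direction. The Serpina3c difference was not called there (limma adjusted p = 0.812). A match is a run of letters and not a measured site.

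Other acute-phase genes were looked at beside the family. Of 16 acute-phase genes tested, 0 were called for PCN in either genotype, with 14 higher in Pxr-/- mice and 9 in WT mice. At an unadjusted limma p of up to 0.05, 6 were higher in Pxr-/- mice (3.4% of all probes) and 2 in WT mice (2.49% of all probes). The largest differences were those of Saa3, serum amyloid A made outside the liver, at 2.75 in Pxr-/- (SE 0.72, limma adjusted p = 0.399) and 1.41 in WT mice (SE 0.76), and of the metallothionein Mt2 at 1.44 (SE 0.28, limma adjusted p = 0.206) and 0.83 (SE 0.29). Saa3 was 8.50 to 11.57 on Pxr-/- CONT and 11.02 to 13.57 on Pxr-/- PCN arrays, which overlapped, whereas Mt2 at 13.56 to 14.77 and 15.13 to 15.95 did not. Without the 4 arrays 13 of 16 were higher in Pxr-/- and 11 in WT mice, 0 called. Among CONT mice all 16 were lower in Pxr-/- than in WT mice, 8 at an unadjusted limma p of up to 0.05 (12.7% of all probes, in either direction) and 0 called, led by Itih4 at -2.38 (SE 0.65) and haptoglobin (Hp) at -2.18 (SE 0.63). Without the 4 arrays all 16 were again lower, 6 at that threshold. The mean of the 16 genes was 12.02 on WT CONT replicate 5, the array highest in hepatocyte markers, and 9.71 to 10.37 on the other WT CONT arrays, against 9.25 to 9.70 on Pxr-/- CONT arrays. In the same comparison all 8 hepatocyte markers (median difference -1.40) and 7 of 8 adipocyte markers (-1.02, 5 of them at that threshold) were lower in Pxr-/- mice, and their part was not tested.

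Of 20 genes of IL-6 and STAT3 signalling, a pathway that drives acute-phase genes, 14 were higher with PCN in Pxr-/- mice and 11 in WT mice, and 0 were called. At an unadjusted limma p of up to 0.05, 7 were higher in Pxr-/- mice (3.4% of all probes) and 5 in WT mice (2.49% of all probes). Without the 4 arrays 15 were higher in Pxr-/- mice, 0 called, and 13 in WT mice, 1 called (0.0491% of all probes). Il6, the cytokine itself, was not well above background on 4 of 5 Pxr-/- CONT arrays (5.14 to 5.56) and was 6.30 to 7.17 on Pxr-/- PCN arrays, a difference of 1.31 (SE 0.35, limma adjusted p = 0.40) against signals mostly at background. On WT arrays it was 5.03 to 6.01 in CONT and at least 6.91 on 3 of the PCN arrays, while WT PCN replicate 3, at 5.30, was again among the CONT values. Socs3 is the feedback inhibitor of the pathway. It was 10.71 to 11.56 on Pxr-/- CONT and 11.81 to 12.57 on Pxr-/- PCN arrays, a difference of 1.27 (SE 0.30, limma adjusted p = 0.314). Il1b, a cytokine of myeloid cells, differed by 1.07 in WT mice (SE 0.32, limma adjusted p = 0.956) and was the gene called there without the 4 arrays (1.79, SE 0.16, limma adjusted p = 0.00471).

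Of 11 proteases that serpins of this clade are known to inhibit or relatives of them, 0 were called for PCN or genotype, with or without the 4 arrays. The mast cell proteases Mcpt1 and Mcpt4, chymotrypsin-like enzymes, were 1.24 (SE 0.36) and 1.27 (SE 0.35) higher with PCN in Pxr-/- mice (limma adjusted p = 0.448 and 0.414), and among CONT mice differed by -1.36 and -1.34 between Pxr-/- and WT mice. Of the other 10 clade A serpins tested, 9 were higher with PCN in Pxr-/- mice and 4 in WT mice, 0 of them called. At an unadjusted limma p of up to 0.05, 1 was higher in Pxr-/- mice (3.4% of all probes). That was Serpina3j of the same cluster, at 0.76 in Pxr-/- (SE 0.22, limma adjusted p = 0.436) and 0.38 in WT mice. These counts turned without the 4 arrays, with 3 of 10 higher in Pxr-/- (median difference -0.03) and 9 of 10 in WT mice (0.60), 0 called. Of 9 genes of the glucocorticoid response, 6 were higher with PCN in each genotype and 0 called, with Fkbp5 at 0.68 (SE 0.22) in Pxr-/- and 0.77 (SE 0.24) in WT mice. Without the 4 arrays 6 were higher in Pxr-/- and 8 in WT mice. Of 13 interferon genes 0 were called for PCN, with 11 higher in WT and 4 in Pxr-/- mice, and 0 and 10 without the 4 arrays. They differed most between genotypes among CONT mice, where 11 were higher in Pxr-/- mice and 7 had an unadjusted limma p of up to 0.05 (12.7% of all probes, in either direction). Isg15 was at 2.62 (SE 0.78) and Ifit1 at 2.48 (SE 0.71), both with a limma adjusted p of 0.245, and at 2.27 and 2.16 without the 4 arrays.

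As a description, the genes whose signal followed each member most closely over the 13 remaining arrays were sought among 24842 genes on these same libraries. For Serpina3n they were a transcript that the array names only by an Ensembl number (Pearson's r = 0.98 over 13 arrays and 0.97 over 17), the chemokine Cxcl5 (0.96 and 0.97) and Ifitm1 (0.96 and 0.94). Serpina3m followed Itih3 (0.92 and 0.93), Lrg1 (0.90 and 0.92) and Fetub (0.89 and 0.88), plasma protein genes of the liver. Serpina3g followed Kctd10 (0.91 and 0.83), Rasa3 (0.88 and 0.70) and Fbxo6 (0.88 and 0.71), and Serpina3h followed Sting1 (0.90 and 0.76). Within the family, Serpina3n was closest to Serpina3i (0.94 and 0.93), Serpina3m to Serpina3c (0.90 and 0.92) and Serpina3k (0.86 and 0.85), and Serpina3g to Serpina3f (0.83 and 0.81), whereas Serpina3n and Serpina3g shared an r of 0.52 over 13 arrays and 0.61 over 17.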

How the data were processed

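Colon RNA (150 ng per sample) was labelled with Cy3 and hybridized by the authors to SurePrint G3 Mouse arrays, 1 sample per array. The deposited scanner tables (Agilent Feature Extraction 10.10.1.1) hold the intensity of each spot. The deposited value table holds the authors' log2 values, normalized by them for 36695 probes, and served to choose 1 probe per member and as an alternative. From the median intensity, outlier spots were dropped, log2 taken, arrays quantile-normalized and spots of a probe averaged (56605 probes). The 38703 probes well above background on at least 4 arrays were tested with limma 3.58.1 (R 4.3.3), with the 4 groups and wash bath as terms over all 17 arrays, and called at a Benjamini-Hochberg FDR of 0.05 and a fold change over 1.5. Between 61% and 69.7% of probes were well above background per array and 0 spots were saturated. The number of arrays limits the precision. Intervals and p-values measure the spread between samples, since the sources do not say how each sample was drawn. The steps were tested on simulated data.

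The members, gene lists and alternatives were chosen with earlier results of these data known. All members are given, with SE and adjusted p where a difference passed 1.5-fold or an unadjusted p of 0.05; from other lists, genes called and those with the largest differences in a comparison. Alternatives were other normalizations and filters, the wash bath, slide and replicate number as terms, fewer groups, the mean over the probes of a gene, and leaving out arrays. Upstream windows and gene positions come from RefSeq (GRCm38.p6), probe positions from the array design (mm9). Probes and windows were aligned locally with Biopython 1.88. A bound against a group below background used, per array, the higher of the probe's own signal and that of the dimmest probe well above background.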

Additional observations from a re-analysis of the deposited data

Results flagged for a closer look

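Of 36 groups of member values examined for an array lying far from the rest, 3 had one, and chance gives about 1 in 20. Serpina3n on WT PCN replicate 3, at a log2 signal of 9.07, lay far below the other WT PCN arrays (10.85 to 11.18). This array was near-identical to Pxr-/- CONT replicate 2 (9.17). Serpina3k on WT CONT replicate 5, at 8.99, lay far above the other WT CONT arrays (4.92 to 5.05), and that array had the highest hepatocyte marker mean, 11.75. Serpina3k on Pxr-/- CONT replicate 5, at 5.48, lay above the other arrays of its group (4.76 to 4.88), and none of these 5 values was well above background.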

How the results depend on the processing

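Over the alternatives that gave a value (12 to 14 for each) and 17 arrays left out in turn, 0 of the 19 member differences that passed 1.5-fold or an unadjusted p of 0.05 turned direction. Those that passed neither were followed only without the 4 near-identical arrays. There Serpina3c for PCN in WT mice turned from -0.06 to 0.46. The difference in PCN effect for Serpina3k, a gene below background on most arrays, turned from 0.11 to -0.72. The count of called members, 0 in each of the 4 comparisons, stayed at 0 between genotypes and for the difference in PCN effect. For PCN in WT mice it ranged from 0 to 1 with an array left out, the 1 being Serpina3n once WT PCN replicate 3 was dropped. In Pxr-/- mice the PCN count ranged from 0 to 2, the 2 being Serpina3i and Serpina3n without that array, and was 1 (Serpina3n) without the 4 near-identical arrays and 1 (Serpina3n) with only the 2 Pxr-/- groups in the fit (1.60, limma adjusted p = 0.0012). Without WT PCN replicate 3, Serpina3i differed by 0.81 in Pxr-/- mice (limma adjusted p = 0.0087). This array held the lowest WT PCN signal of both Serpina3n and Serpina3i, so these calls depend on dropping their own outlying values. Within-group spread, to which WT PCN replicate 3 adds, is pooled over all groups in the fit.

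The groups share replicate numbers. Deviations of same-numbered samples had a median r of 0.10 over 22 pairs, 11 of them over 0.1, against -0.05 over 86 pairs of different number, 30 of them over 0.1. Since not every pair was over 0.1, the numbers were not taken to pair the samples. With the replicate block, 0 members were called in each comparison, and Serpina3n differed by 1.65 in Pxr-/- and 0.84 in WT mice. Dim members (Serpina3c, Serpina3i, Serpina3k) sit near the detection limit, which was 4.66 to 5.52 on the log2 scale, so that small differences in them were not detectable.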
